A study of Mus musculus with 18 samples.

Results

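The 39 genes described here carry fatty acids from the blood into heart muscle, store and release them, and burn them in mitochondria and peroxisomes. They were a list of gene symbols, with no measured value in the rule, and all 39 were found among the 19197 genes measured. By role they comprised 4 genes of uptake, 4 of activation and thioester cleavage, 4 of storage and lipolysis, 5 of the carnitine shuttle and its malonyl-CoA brake, 9 of the mitochondrial beta-oxidation spiral, 3 auxiliary enzymes for unsaturated chains, 2 peroxisomal enzymes, 3 of the electron transfer flavoprotein system, 2 uncoupling proteins and 3 transcriptional regulators.

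RNA was sequenced from the apex of 18 hearts of C57BL/6 mice, taken 1 day after surgery. The hearts form 3 groups of 6. The sham_vehicle mice had a sham operation and received vehicle, the MI_vehicle mice had a myocardial infarction (MI) and received vehicle, and the MI_DCA mice had an infarction and received DCA in a daily dose of 10 mg/kg. No sham group given DCA was analysed here, so the compound was observed only in infarcted hearts. The abbreviation DCA is not explained in the labels. It is read here as deoxycholic acid, a bile acid made by gut bacteria, since TGR5, a receptor for bile acids, appears in the title of the study. The labels state no age, sex, infarct size or duration of dosing, nor whether every library is from a mouse of its own. The p-values therefore rest on the spread among these 18 libraries, which may be partly technical.

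The adult heart draws most of its energy from long-chain fatty acids. Lipoprotein lipase frees them from circulating triglyceride, membrane and cytosolic carriers bring them into the cardiomyocyte, and acyl-CoA synthetase traps them as acyl-CoA. The carnitine shuttle moves the acyl groups into the mitochondrion, where each turn of the beta-oxidation spiral shortens the chain and passes electrons to the respiratory chain. The nuclear receptor PPARα, the coactivator PGC-1α and the orphan receptor ERRα are known to drive many of these genes, and injured and failing hearts are known for lower fatty acid oxidation.

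Expression values are FPKM, reads scaled to transcript length and library size, as deposited. The files hold no counts. Steps in the low values of short genes put the depth at about 9600000 to 10700000 reads in sham hearts, 11100000 to 13800000 in MI_vehicle hearts and 10100000 to 13000000 in MI_DCA hearts. Fold changes are differences of mean log2(FPKM + 1), given with their standard error (SE) and with limma's p adjusted over all genes tested. A gene was called at an adjusted p under 0.05. All 39 members passed the filter on low values (FPKM of 1 or more in 6 or more of the 12 hearts compared) in each comparison.

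In sham hearts the members spanned a wide range of abundance per length. Fabp3 was highest at 5100.4 ± 399 FPKM (mean ± SD, n = 6), followed by Lpl at 1744 ± 128 and Hadhb at 1037 ± 101. These 3 did not overlap in level, whereas the next places were close together: Etfb (651 ± 51.4) and Acadl (649 ± 28.6) differed by less than their spread. At the lower end stood Ppara (9.42 ± 1.98) and Ehhadh (8.10 ± 1.36). Together the members made up 2.85% to 3.30% of the summed FPKM of a sham heart, 0.987% to 2.83% of that of an MI_vehicle heart and 1.196% to 2.85% of that of an MI_DCA heart.

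The infarcted hearts differed greatly among themselves, and they did so for nearly all members at once. Set against the sham mean of each gene, the median member stood at 93.5% to 104% in the 6 sham hearts. In MI_vehicle hearts 1 to 6 it stood at 39.3%, 39.6%, 57.7%, 92.3%, 64.5% and 32.8%. In MI_DCA hearts 1 to 6 it stood at 87.6%, 38.7%, 89.4%, 62.7%, 82.6% and 46.8%. Both infarcted groups thus held hearts near the sham level and hearts far below it. MI_vehicle heart 4 had the highest value of its group in 35 of 39 members, and MI_DCA heart 2 the lowest of its group in 34 of 39. The ratio of the highest to the lowest heart, taken gene by gene, had a median of 1.27 in sham hearts, 2.75 in MI_vehicle hearts and 2.47 in MI_DCA hearts.

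**Figure D1:**
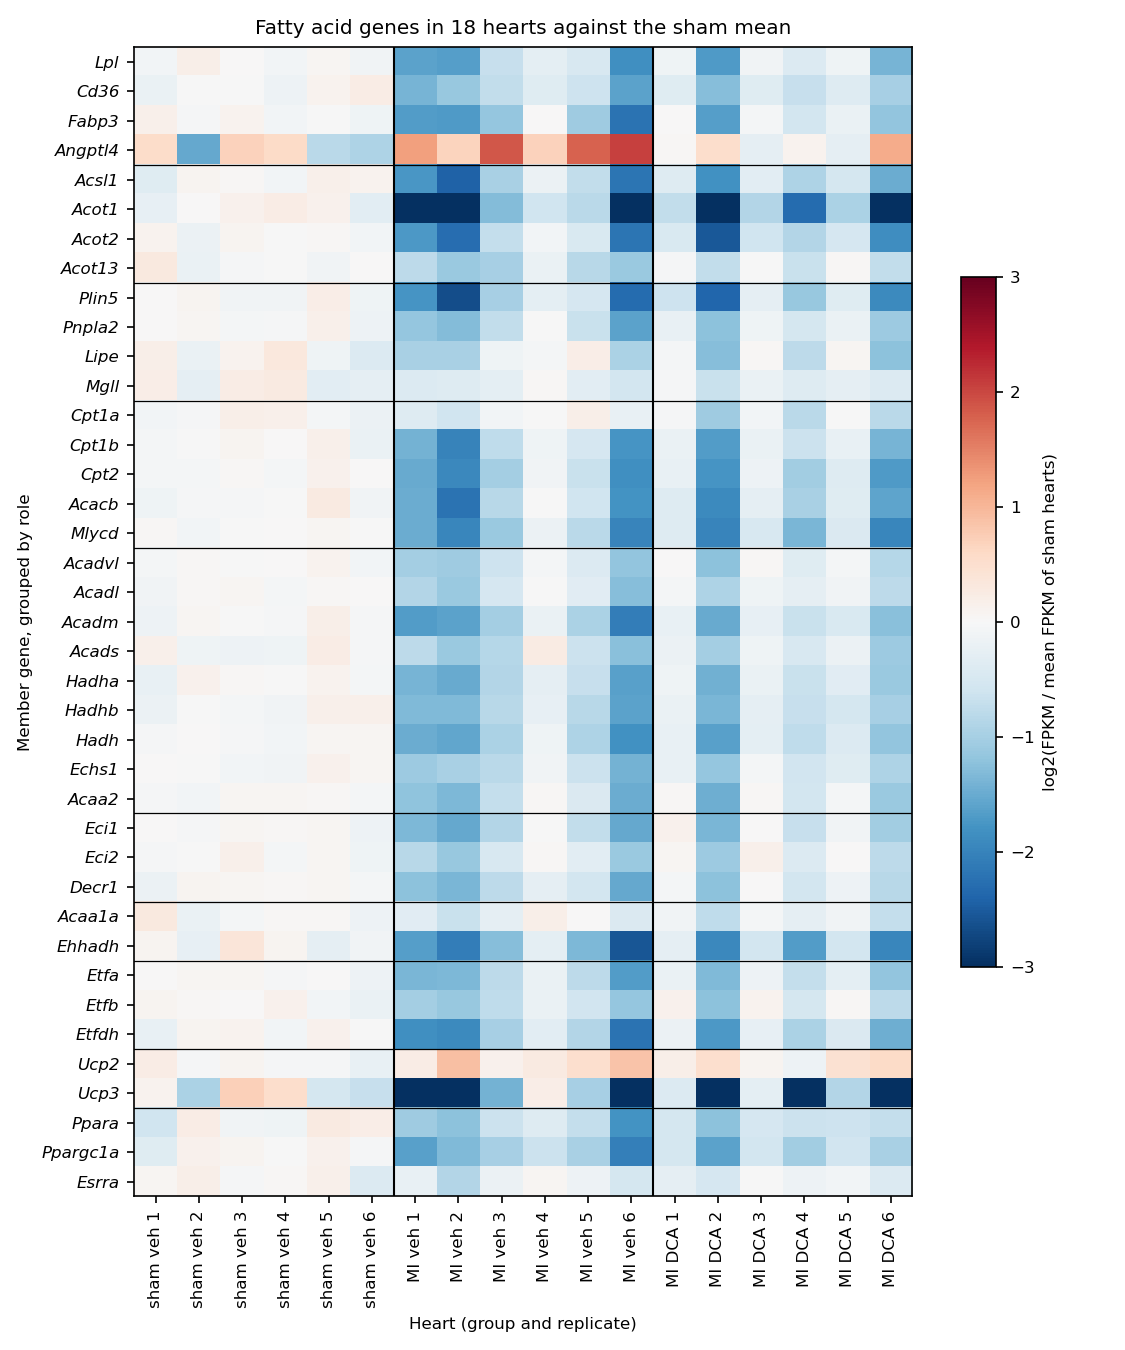
Level of each of the 39 members (rows, grouped by role with lines between roles) in each of the 18 hearts (columns), as log2 of FPKM over the mean FPKM of the sham hearts, with colours capped at -3 and 3. MI_vehicle hearts 1, 2 and 6 and MI_DCA hearts 2 and 6 are blue in nearly every row, MI_vehicle heart 4 is close to the sham level, and Angptl4 and Ucp2 run against the rest in MI_vehicle hearts.

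Markers of cardiomyocytes moved with the members. The median of 16 cardiomyocyte markers stood at 94.99% to 105% of the sham mean in sham hearts. It stood at 53.4%, 41.8%, 59.0%, 98.8%, 67.1% and 42.8% in MI_vehicle hearts 1 to 6, and at 94.2%, 46.3%, 100.3%, 72.7%, 89.9% and 53.5% in MI_DCA hearts 1 to 6. The summed FPKM of these markers ran from 59745 to 70895 in the sham group, from 27529 to 60447 in the MI_vehicle group and from 28178 to 64564 in the MI_DCA group. Monocyte and macrophage markers went the other way, with sums over 11 genes of 267 to 439 FPKM (sham), 477 to 1012 (MI_vehicle) and 286 to 752 (MI_DCA). Sums over 7 neutrophil markers were 10.8 to 39.1, 56.5 to 382 and 41.8 to 181 FPKM. The part of these cells in the members' values was not tested. In bulk tissue, fewer cardiomyocytes and less RNA per cardiomyocyte cannot be told apart. Adipocyte markers were nearly absent: 7 of them summed to at most 1.51 FPKM in any heart, and Adipoq, Plin1, Cfd, Retn, Lep and Ucp1 stayed under 0.5 FPKM in all 18 hearts.

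**Figure D2:**
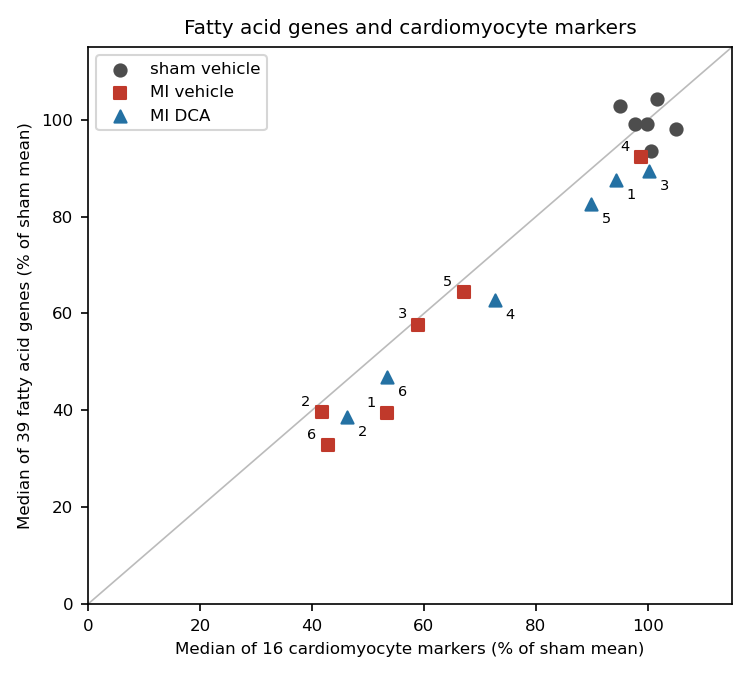
Median level of the 39 members (vertical axis) against the median level of 16 cardiomyocyte markers (horizontal axis), both as percent of the sham mean, with 1 point per heart and replicate numbers beside the infarcted hearts. The infarcted hearts lie along the line of equal percentages or somewhat below it, from MI_vehicle heart 6 (32.8% for members, 42.8% for markers) to MI_vehicle heart 4 (92.3% and 98.8%).

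Most of the pathway was lower after infarction. Of the 39 members, 32 fell in MI_vehicle hearts against sham hearts and 2 rose, where 20.1% of the 11969 genes tested fell and 38.3% rose. Under median-ratio scaling, which took the median over all genes from 0.12 to -0.0046, 3379 genes were higher and 3430 lower, against 4583 and 2408 here, and every member kept its sign. The median log2 fold change was -0.997 over the members and 0.12 over all genes tested. For 16 members every MI_vehicle heart lay below every sham heart, as did 5.74% of all genes tested. The risers were Angptl4, an inhibitor of lipoprotein lipase, and Ucp2, a mitochondrial carrier, and the 5 members that missed the threshold were Lipe, Mgll, Cpt1a, Acaa1a and Esrra. All 5 were called lower under median-ratio scaling and under quantile normalization. Without MI_vehicle heart 4, 36 members fell, where 2740 of 11844 genes tested did, and the 2 risers rose also without it. Whether fold changes differed between members was not tested.

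**Figure D3:**
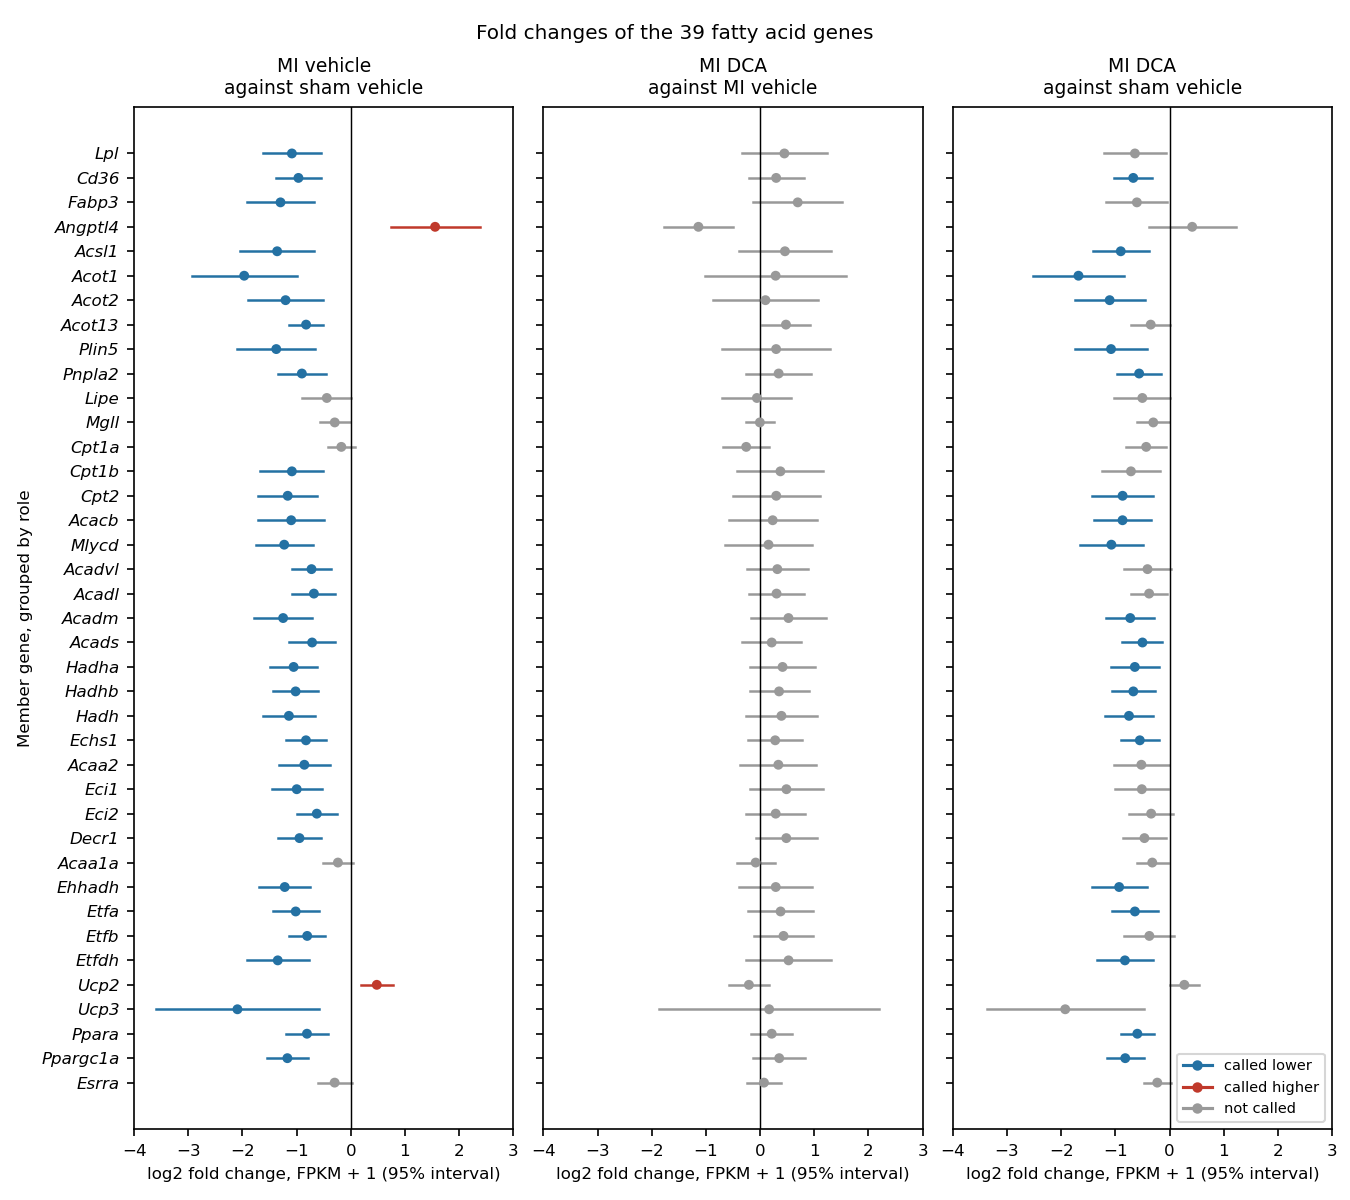
Log2 fold change (on FPKM + 1) of each member with its 95% interval in the 3 comparisons, coloured by call (blue lower, red higher, grey not called). In MI_vehicle against sham, 32 members lie below 0 and are called, in MI_DCA against MI_vehicle none is called, and in MI_DCA against sham 20 are called lower.

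Uptake genes fell while the secreted inhibitor of lipoprotein lipase rose. Lpl ranged from 1618 to 1962 FPKM in sham hearts (median 1711), from 491 to 1418 in MI_vehicle hearts (median 828) and from 541 to 1626 in MI_DCA hearts (median 1445). All MI_vehicle hearts lay below all sham hearts, a log2 fold change of -1.09 (SE 0.25, adjusted p = 0.00259) for this lipase of the capillary wall. Sham hearts held 652 to 875 FPKM of Cd36 (median 748), MI_vehicle hearts 247 to 588 (median 397) and MI_DCA hearts 313 to 587 (median 522). This membrane fatty acid carrier also separated both vehicle groups, at -0.97 (SE 0.19, adjusted p = 0.00105).

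The heart-type fatty acid binding protein, which ferries fatty acids through the cytosol, fell as well. For Fabp3 the lowest, median and highest FPKM were 4645, 5013 and 5690.1 in sham hearts, 1105, 1940.3 and 5103 in MI_vehicle hearts, and 1617, 3963 and 5101 in MI_DCA hearts. MI_vehicle heart 4 reached the sham range while the other 5 lay below it, and the fold change was -1.30 (SE 0.28, adjusted p = 0.00195). Levels of Angptl4 lay between 6.85 and 32.2 FPKM in sham hearts (median 20.4), between 31.6 and 83.2 in MI_vehicle hearts (median 57.9) and between 16.5 and 43.5 in MI_DCA hearts (median 21.0). Angptl4, which lies at chr17:33774900-33781575 (GRCm38.p6), rose, with a difference of 1.56 (SE 0.38, adjusted p = 0.00383), and all MI_vehicle hearts but heart 2 exceeded every sham heart. The ratio of Lpl to Angptl4 was at a median of 105 (range 54.8 to 286) in sham hearts, 16.3 (range 5.90 to 43.8) in MI_vehicle hearts and 69.0 (range 15.3 to 98.7) in MI_DCA hearts.

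All 4 members that make or cleave acyl-CoA fell, whereas some genes of this kind outside the member list, given below, rose. Acsl1 ranged from 251 to 357 FPKM in sham hearts (median 338), from 59.5 to 284 in MI_vehicle hearts (median 130.0) and from 91.0 to 259 in MI_DCA hearts (median 197). This long-chain acyl-CoA synthetase, which activates fatty acids for oxidation, fell by 1.36 on the log2 scale (SE 0.32, adjusted p = 0.00296), and only MI_vehicle heart 4 lay inside the sham range. Sham hearts held 14.9 to 21.8 FPKM of Acot1 (median 19.5), MI_vehicle hearts 0.96 to 12.3 (median 4.47) and MI_DCA hearts 1.15 to 11.2 (median 6.69). Acot1, a cytosolic thioesterase that frees fatty acids from CoA, had the second largest fall of all members at -1.97 (SE 0.45, adjusted p = 0.00259), and no MI_vehicle heart reached the sham range.

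For Acot2 the lowest, median and highest FPKM were 57.1, 65.1 and 69.5 in sham hearts, 13.3, 29.1 and 60.5 in MI_vehicle hearts, and 11.0, 38.6 and 46.7 in MI_DCA hearts. This mitochondrial neighbour of Acot1 fell, with a log2 fold change of -1.2 (SE 0.32, adjusted p = 0.00628), and only MI_vehicle heart 4 lay inside the sham range. The neighbours lie 15624 bases apart on chromosome 12 and are near-identical in sequence, so how reads were divided between them is uncertain. As deposited, the ratio of Acot2 to Acot1 had a median of 3.34 (range 2.92 to 4.47) in sham hearts, 7.18 (range 4.42 to 14.7) in MI_vehicle hearts and 6.13 (range 4.17 to 9.58) in MI_DCA hearts. The mitochondria-associated thioesterase Acot13 went from 469 ± 57.9 to 270.0 ± 73.3 FPKM (mean ± SD, n = 6), a fold change of -0.82 (SE 0.15, adjusted p = 0.000643).

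Of the storage and lipolysis genes 2 of 4 fell. Plin5, which coats lipid droplets in oxidative tissue, and Pnpla2, the lipase of the first step of triglyceride breakdown, were lower in MI_vehicle hearts. Plin5 ranged from 73.0 to 92.2 FPKM in sham hearts (median 77.3), from 12.7 to 65.6 in MI_vehicle hearts (median 31.6) and from 15.4 to 66.7 in MI_DCA hearts (median 44.0). Every MI_vehicle heart lay below every sham heart in Plin5, at -1.38 (SE 0.34, adjusted p = 0.00374). Sham hearts held 279 to 345 FPKM of Pnpla2 (median 303), MI_vehicle hearts 102 to 308 (median 161) and MI_DCA hearts 131 to 283 (median 238). Pnpla2 fell, with a log2 fold change of -0.90 (SE 0.21, adjusted p = 0.00268), and only MI_vehicle heart 4 lay among the sham hearts.

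The lipases of the later steps did not pass the threshold. Levels of Lipe lay between 25.8 and 42.7 FPKM in sham hearts (median 34.1), between 17.4 and 38.9 in MI_vehicle hearts (median 24.5) and between 14.1 and 35.5 in MI_DCA hearts (median 26.2). For this hormone-sensitive lipase the groups overlapped and the fold change was -0.44 (SE 0.21, adjusted p = 0.0838). For Mgll the lowest, median and highest FPKM were 55.9, 68.9 and 83.1 in sham hearts, 47.2, 54.1 and 70.4 in MI_vehicle hearts, and 43.4, 55.1 and 67.4 in MI_DCA hearts. Mgll, the monoacylglycerol lipase, overlapped between groups at -0.30 (SE 0.13, adjusted p = 0.0638). Its sham values were 80.0, 81.0 and 83.1 FPKM in hearts 1, 3 and 4. In sham hearts 2, 5 and 6 they were 57.8, 55.9 and 57.5, inside the MI_vehicle range. Lipe stood at 38.3, 36.8 and 42.7 FPKM in sham hearts 1, 3 and 4. It stood at 29.7, 31.4 and 25.8 in sham hearts 2, 5 and 6. Both were called lower under median-ratio scaling (adjusted p = 0.0336 for Lipe and 0.0133 for Mgll) and under quantile normalization (0.0458 and 0.0192).

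At the gate of the mitochondrion, the muscle isoform of the carnitine shuttle fell and the liver isoform did not pass the threshold. Cpt1b ranged from 279 to 355 FPKM in sham hearts (median 320.3), from 79.6 to 294 in MI_vehicle hearts (median 155) and from 101 to 281 in MI_DCA hearts (median 241). Cpt1b, the carnitine palmitoyltransferase that cardiomyocytes mainly use, fell, with a log2 fold change of -1.09 (SE 0.27, adjusted p = 0.00413), and only MI_vehicle heart 4 reached the sham range. Sham hearts held 17.4 to 22.2 FPKM of Cpt1a (median 19.0), MI_vehicle hearts 12.9 to 22.2 (median 17.6) and MI_DCA hearts 9.44 to 19.3 (median 14.9). Cpt1a, the isoform of liver and fetal heart, overlapped between groups at -0.17 (SE 0.12, adjusted p = 0.21). The ratio of Cpt1b to Cpt1a had a median of 16.4 (range 14.8 to 18.9) in sham hearts, 9.15 (range 5.62 to 15.1) in MI_vehicle hearts and 14.4 (range 10.7 to 18.5) in MI_DCA hearts.

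For Cpt2 the lowest, median and highest FPKM were 145, 149 and 167 in sham hearts, 39.8, 64.7 and 140.5 in MI_vehicle hearts, and 44.9, 95.1 and 136 in MI_DCA hearts. Cpt2, which rebuilds acyl-CoA inside the mitochondrion, fell, with a log2 fold change of -1.16 (SE 0.25, adjusted p = 0.00189), with no overlap. Both members that set malonyl-CoA, the inhibitor of the shuttle, fell together. Levels of Acacb lay between 38.7 and 51.4 FPKM in sham hearts (median 41.6), between 9.19 and 42.5 in MI_vehicle hearts (median 19.4) and between 11.4 and 35.5 in MI_DCA hearts (median 27.2). Acacb, the carboxylase that makes malonyl-CoA at the mitochondrial surface, changed by -1.10 (SE 0.28, adjusted p = 0.00493), and only MI_vehicle heart 4 lay inside the sham range. Mlycd ranged from 73.9 to 81.9 FPKM in sham hearts (median 79.2), from 19.9 to 69.7 in MI_vehicle hearts (median 32.2) and from 20.04 to 60.4 in MI_DCA hearts (median 43.4). Mlycd, the decarboxylase that removes malonyl-CoA, separated both vehicle groups at -1.23 (SE 0.25, adjusted p = 0.00113).

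All 9 enzymes of the beta-oxidation spiral fell, with log2 fold changes from -1.25 (Acadm) to -0.68 (Acadl). Acyl-CoA dehydrogenases, each for a range of chain lengths, carry out the opening step. Sham hearts held 536 to 679.7 FPKM of Acadm (median 587), MI_vehicle hearts 141 to 521 (median 244) and MI_DCA hearts 208 to 510.0 (median 405). The medium-chain enzyme Acadm had the largest fall of the spiral, -1.25 (SE 0.25, adjusted p = 0.00106), and no MI_vehicle heart reached the sham range. For Acadl the lowest, median and highest FPKM were 604, 656 and 680.2 in sham hearts, 267, 408 and 644 in MI_vehicle hearts, and 342, 567 and 628 in MI_DCA hearts. The long-chain enzyme Acadl fell, with a log2 fold change of -0.68 (SE 0.18, adjusted p = 0.00665), and only MI_vehicle heart 4 lay inside the sham range. Acadvl, for very long chains, changed by -0.72 (SE 0.17, adjusted p = 0.0029) and Acads, for short chains, by -0.71 (SE 0.20, adjusted p = 0.00784), although MI_vehicle heart 4 lay above every sham heart in Acads.

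The middle and closing steps showed falls of like size. Hadha and Hadhb code for both subunits of the trifunctional protein, which carries out the last steps on long chains at the inner membrane. Hadha ranged from 466 to 595 FPKM in sham hearts (median 549.6), from 175 to 449.8 in MI_vehicle hearts (median 253) and from 201 to 498 in MI_DCA hearts (median 387). All 6 MI_vehicle hearts lay below the sham hearts in Hadha, at -1.05 (SE 0.20, adjusted p = 0.000878), and in Hadhb, at -1.02 (SE 0.19, adjusted p = 0.000792). Their ratio, Hadhb to Hadha, had a median of 1.88 (range 1.73 to 2.23) in sham hearts, 1.95 (range 1.75 to 2.16) in MI_vehicle hearts and 1.85 (range 1.67 to 2.08) in MI_DCA hearts, so both subunits kept a like proportion in all 3 groups while their level differed up to several-fold between hearts.

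Both genes start head to head on chromosome 5, 272 bases apart by their RefSeq spans (GRCm38.p6), Hadha at chr5:30119423-30154980 and Hadhb at chr5:30155253-30184593. The 85 bases between them that lie outside every GENCODE exon, chr5:30155163-30155247 on the plus strand, are shown because the genes are neighbours. Nearly all members moved together, and a part of this stretch in the levels was not tested. Capitals mark the 2 matches to the GC box GGGCGG, searched on both strands, and the stretch has a GC content of 69.4%. Of the 33 members with a RefSeq promoter window, 22 (66.7%) held this box in the 250 bases before the start, and 63.8% of the 9549 tested genes with a window did.
Hadha to Hadhb: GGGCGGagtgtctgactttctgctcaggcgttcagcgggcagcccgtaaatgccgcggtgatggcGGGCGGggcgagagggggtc

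Hadh, the dehydrogenase for shorter hydroxyacyl chains, fell without overlap at -1.14 (SE 0.22, adjusted p = 0.000984), and Echs1, the short-chain enoyl-CoA hydratase, fell, with a log2 fold change of -0.83 (SE 0.17, adjusted p = 0.00128). Levels of Acaa2 lay between 549 and 611 FPKM in sham hearts (median 584), between 209 and 594 in MI_vehicle hearts (median 304) and between 212 and 596 in MI_DCA hearts (median 478). Acaa2, the thiolase that releases acetyl-CoA, changed by -0.86 (SE 0.22, adjusted p = 0.00466), and only MI_vehicle heart 4 lay inside the sham range.

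The 3 auxiliary enzymes, which prepare the double bonds of unsaturated chains for the spiral, all fell. The isomerases Eci1 and Eci2 changed by -0.997 (SE 0.22, adjusted p = 0.00182) and -0.63 (SE 0.17, adjusted p = 0.00774), and the dienoyl-CoA reductase Decr1 by -0.95 (SE 0.19, adjusted p = 0.00102), the last without overlap. In peroxisomes, which shorten very long chains, 1 of 2 members fell. Ehhadh ranged from 6.76 to 10.4 FPKM in sham hearts (median 8.06), from 1.36 to 6.59 in MI_vehicle hearts (median 2.88) and from 2.08 to 6.77 in MI_DCA hearts (median 4.03). Ehhadh, the peroxisomal bifunctional enzyme, fell without overlap at -1.22 (SE 0.22, adjusted p = 0.000656). Sham hearts held 32.3 to 44.9 FPKM of Acaa1a (median 36.5), MI_vehicle hearts 23.2 to 41.8 (median 30.0) and MI_DCA hearts 21.9 to 35.2 (median 32.4). Acaa1a, the peroxisomal thiolase, overlapped between groups at -0.24 (SE 0.13, adjusted p = 0.13).

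The electron transfer flavoprotein, a dimer of Etfa and Etfb, takes electrons from the acyl-CoA dehydrogenases and hands them to the oxidoreductase Etfdh. All 3 genes fell, and in all 3 no MI_vehicle heart reached the sham range. Etfdh went from 307 ± 28.0 to 133 ± 68.7 FPKM (mean ± SD, n = 6), a log2 fold change of -1.35 (SE 0.27, adjusted p = 0.00108). Etfa changed by -1.02 (SE 0.20, adjusted p = 0.00097) and Etfb by -0.80 (SE 0.15, adjusted p = 0.000914). The ratio of Etfb to Etfa had a median of 1.60 (range 1.53 to 1.84) in sham hearts, 1.89 (range 1.66 to 2.33) in MI_vehicle hearts and 2.02 (range 1.76 to 2.16) in MI_DCA hearts.

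The uncoupling proteins, inner membrane carriers, moved in opposite directions and their genes lie 6904 bases apart, Ucp3 at chr7:100472991-100486432 and Ucp2 at chr7:100493337-100499629. Ucp3 ranged from 33.0 to 106 FPKM in sham hearts (median 56.9), from 0.98 to 73.4 in MI_vehicle hearts (median 15.9) and from 2.04 to 52.6 in MI_DCA hearts (median 21.3). Ucp3, the muscle form, had the largest fall of all members and also the widest error, -2.09 (SE 0.70, adjusted p = 0.0199), and only MI_vehicle heart 4 reached the sham range. Sham hearts held 86.0 to 118 FPKM of Ucp2 (median 99.0), MI_vehicle hearts 109.9 to 188 (median 132) and MI_DCA hearts 90.7 to 149.6 (median 127). Ucp2, which immune cells also express, rose, with a difference of 0.48 (SE 0.14, adjusted p = 0.00963), and all MI_vehicle hearts but heart 3 exceeded every sham heart. Sums of monocyte and macrophage markers and of neutrophil markers lay above the sham range in every MI_vehicle heart. This included heart 3 (499 and 253 FPKM), whose Ucp2 (109.9 FPKM) lay inside the sham range. The part of these cells in Ucp2 was not tested. Under median-ratio scaling Ucp2 missed the threshold at an adjusted p = 0.0505. Another gene, Gm10603, overlaps bases shortly before the start of Ucp3 in GENCODE, and whether the counting used strand is not given in the sources used here.

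**Figure D4:**
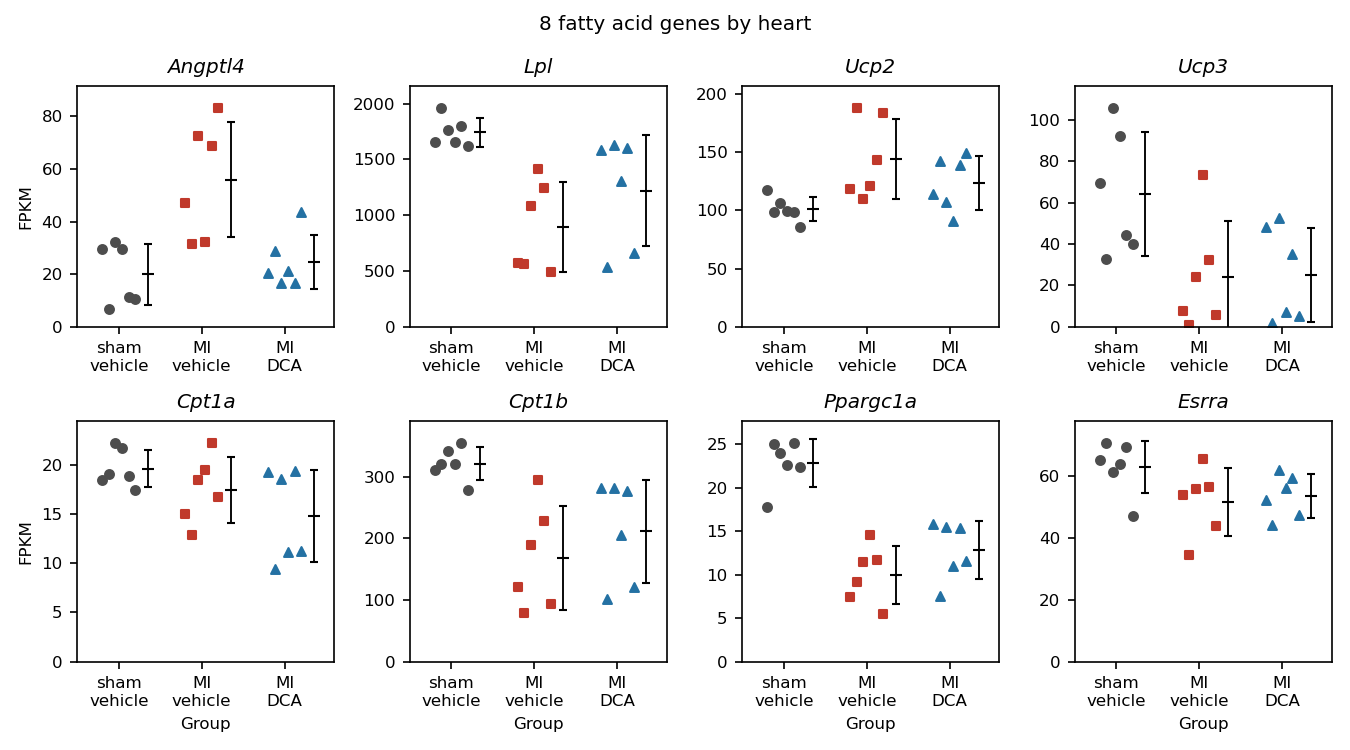
FPKM of 8 members in each heart, by group, on linear axes from 0, with the mean and SD (bars, cropped at 0) beside the points. Angptl4 is higher in most MI_vehicle hearts (median 57.9 FPKM) than in sham hearts (20.4) and MI_DCA hearts (21.0), Ucp2 and Ucp3 go in opposite directions, Cpt1a and Esrra overlap between all groups, and Ppargc1a of every infarcted heart lies below every sham heart.

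Of the regulators, Ppargc1a, which codes for the coactivator PGC-1α (chr5:51454249-52115853), fell most clearly. For Ppargc1a the lowest, median and highest FPKM were 17.8, 23.3 and 25.2 in sham hearts, 5.52, 10.3 and 14.6 in MI_vehicle hearts, and 7.55, 13.5 and 15.8 in MI_DCA hearts. No infarcted heart of either group reached the lowest sham heart, and the change in MI_vehicle hearts was -1.17 (SE 0.18, adjusted p = 0.000254), the smallest adjusted p of all members. Levels of Ppara lay between 6.19 and 11.3 FPKM in sham hearts (median 9.73), between 2.73 and 7.18 in MI_vehicle hearts (median 5.12) and between 3.99 and 6.62 in MI_DCA hearts (median 6.09). Ppara, the lipid-sensing nuclear receptor, fell, with a log2 fold change of -0.81 (SE 0.18, adjusted p = 0.00238), with an overlap. Esrra ranged from 47.0 to 70.7 FPKM in sham hearts (median 64.5), from 34.4 to 65.4 in MI_vehicle hearts (median 54.8) and from 44.0 to 62.0 in MI_DCA hearts (median 54.2). Esrra, which codes for ERRα, overlapped between groups at -0.30 (SE 0.14, adjusted p = 0.0922).

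Both nuclear receptors bind forms of the half-site AGGTCA. It was searched on both strands in the 250 bases before the start of the 33 members with a RefSeq promoter window (GRCm38.p6). Matches were found in 7 of 33 members (21.2%) and in 13.0% of the 9549 tested genes with a window. No member held 2 copies in a row 1 base apart, the arrangement that PPARα binds with RXR, as did 0.0419% of tested genes, and the form preceded by A was found in Acadm only (3.03% of members), against 3.45% of tested genes. A match of letters shows no binding. The matching stretches are given 5′ to 3′ on the gene's strand with up to 15 bases on each side, to show where the letters stand in the members. Capitals mark the half-site, which reads TGACCT where it lies on the opposite strand. None of the stretches lies in a GENCODE exon. Those of Cd36 (chr5:17836104-17836139, minus strand) and Cpt1a (chr19:3323192-3323227, plus strand) lie in introns of longer transcripts of these genes, and those of Ucp3 (chr7:100472827-100472862 and chr7:100472932-100472967, plus strand) in the span of Gm10603. That of Echs1 (chr7:140116484-140116519, minus strand) lies in the span of the neighbour Paox, and those of Acadm (chr3:153944872-153944893), Acadvl (chr11:70015495-70015530) and Plin5 (chr17:56117698-56117733), all on the minus strand, lie between genes.
Acadm: gTGACCTtcgggctccggtgac
Cd36: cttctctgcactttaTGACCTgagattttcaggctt
Ucp3: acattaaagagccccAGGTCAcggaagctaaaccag
Ucp3: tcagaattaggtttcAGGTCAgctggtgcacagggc
Echs1: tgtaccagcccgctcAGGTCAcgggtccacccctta
Acadvl: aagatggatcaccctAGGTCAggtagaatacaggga
Plin5: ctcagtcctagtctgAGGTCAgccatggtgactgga
Cpt1a: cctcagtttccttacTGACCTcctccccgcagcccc

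Cardiomyocyte markers fell with the members: 13 of 16 were called lower in MI_vehicle hearts, where 20.1% of genes tested were, with a median log2 fold change of -0.77. Higher were 10 of 11 monocyte and macrophage markers and 6 of 6 tested neutrophil markers, where 38.3% of genes tested were. The members were therefore also measured relative to the mean log2 level of the cardiomyocyte markers in each heart. The markers themselves did not move alike: their fold changes ran from -1.48 to 0.14, with 2 of 16 above 0. The calls on this scale thus depend on the markers chosen. On this scale the median of all genes shifted to 0.86, 1.81% of genes tested were called lower and 83.9% higher. Among the members 17 were called lower, led by Ucp3 (-1.35, adjusted p = 0.026), Acot1 (-1.23, 0.0028), Plin5 (-0.63, 0.0127) and Acsl1 (-0.62, 0.00932). Among these 17 were also Fabp3 (-0.56), Lpl (-0.35), Mlycd (-0.49), Acadm (-0.51), both trifunctional subunits, Etfdh (-0.61) and Ppargc1a (-0.43).

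Relative to the markers 6 members were called higher: Angptl4 (2.30), Ucp2 (1.22), Cpt1a (0.57), Acaa1a (0.50), Mgll (0.45) and Esrra (0.44). The remaining 16 members, among them Cd36 (-0.22), Cpt1b (-0.35, adjusted p = 0.0538), Ppara (-0.07), Acadvl (0.02) and Acadl (0.06), were not called on this scale. By construction this scale moves every gene of a heart by the same amount, so the order of the members by fold change is that of the deposited values.

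**Figure D5:**
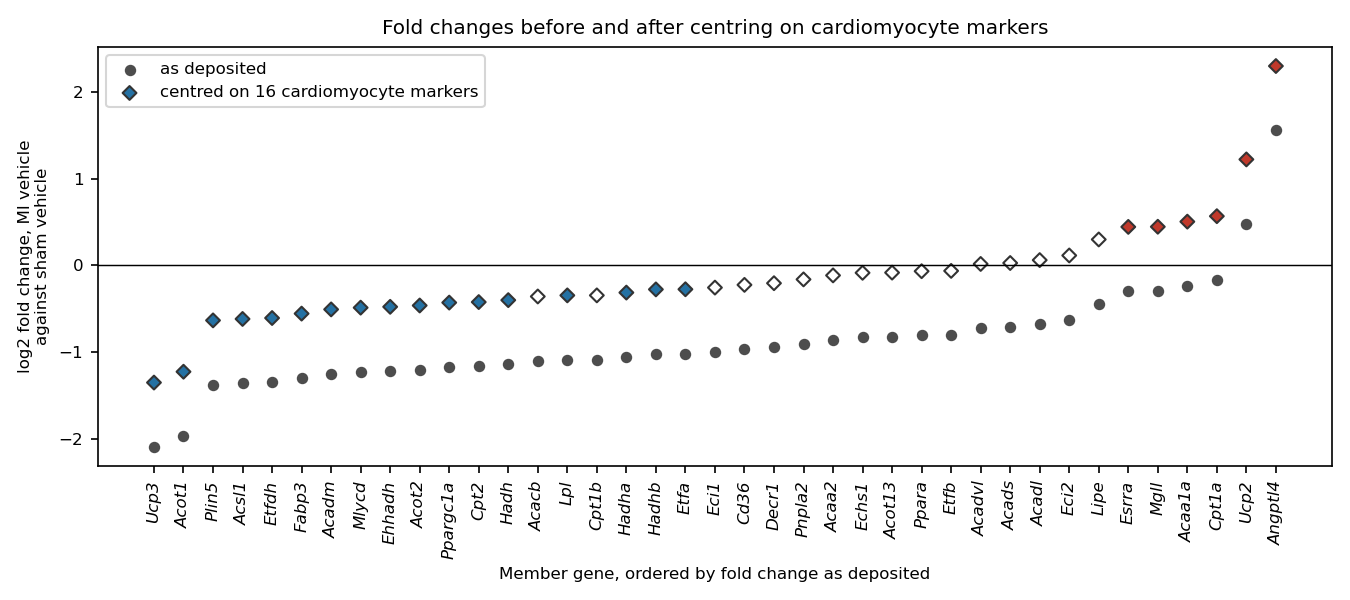
Log2 fold change of the 39 members in MI_vehicle against sham hearts, as deposited (grey circles) and relative to 16 cardiomyocyte markers in each heart (diamonds, blue where called lower, red where called higher, white where not called). Relative to the markers 17 members are called lower and 6 higher.

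Other genes of fatty acid metabolism, a list of 56 of which 53 were tested, gave 35 falls and 6 rises in MI_vehicle hearts, with a median log2 fold change of -0.48. Over all genes tested, 20.1% fell and 38.3% rose. The largest falls were those of Dgat2, which makes triglyceride, from 257 ± 32.8 to 92.4 ± 53.6 FPKM (-1.68, SE 0.33, adjusted p = 0.00103), Klf15, a transcription factor of cardiac lipid use (-1.66, SE 0.34, adjusted p = 0.00132), and Acad11, an acyl-CoA dehydrogenase (-1.46, SE 0.23, adjusted p = 0.000299). The largest rises were those of Hilpda, a lipid droplet protein that inhibits the lipase encoded by Pnpla2, from 3.86 ± 0.809 to 12.6 ± 6.35 FPKM (1.35, SE 0.29, adjusted p = 0.00165), Acot9, a mitochondrial thioesterase (1.30, SE 0.19, adjusted p = 0.000229), and Acsl5, an acyl-CoA synthetase (0.92, SE 0.13, adjusted p = 0.000176). Acsl4, Acot8 and the carrier Slc27a4 rose as well.

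With DCA, no member passed the threshold against MI_vehicle, as was true of all 12004 genes tested (0.0% called). The smallest adjusted p of a member was 0.407 and that of any gene 0.301. At an unadjusted p under 0.05, Angptl4 was lower and Acot13 higher, that is 1 of 39 members each way, where 9.22% of genes tested were lower and 1.6% higher. No member separated both groups, as 0.541% of genes tested did. The point estimates of 33 of 39 members lay above 0, where 35.2% of genes tested lay above 0 (35 members and 51.4% of genes under median-ratio scaling), with a median of 0.30 over the members and -0.06 over all genes tested. The 16 cardiomyocyte markers moved likewise, 15 of 16 above 0 with a median of 0.31, and relative to these markers 20 of 39 members lay above 0 with a median of 0.00046.

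Angptl4 had the largest difference of any member. Its fold change was -1.14 (SE 0.29, 95% interval -1.77 to -0.51) with an adjusted p = 0.407, and a two-sided exact permutation test on FPKM gave p = 0.013, not adjusted over genes. That test was run on each of the 39 members, and this p was the smallest among them. Only MI_DCA heart 6 exceeded the lowest MI_vehicle hearts, and the other 5 MI_DCA hearts lay below all MI_vehicle hearts. Leaving out 1 heart at a time gave values from -1.32 to -1.01, with adjusted p from 0.1001 to 0.774. Acot13 stood at 270.0 ± 73.3 FPKM in MI_vehicle hearts and 378 ± 102 in MI_DCA hearts (mean ± SD, n = 6), a difference of 0.48 (95% interval 0.04 to 0.91, limma's adjusted p = 0.439). The permutation test on FPKM gave p = 0.0606 for Acot13. Hilpda, outside the member list, stood at 12.6 ± 6.35 FPKM in MI_vehicle hearts and 5.65 ± 2.80 in MI_DCA hearts (-0.97, SE 0.34, adjusted p = 0.407).

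For every member but Angptl4 and Acot13 the 95% interval spanned 0. Fabp3 differed by 0.69 (95% interval -0.13 to 1.52), Lpl by 0.45 (-0.34 to 1.24) and Cd36 by 0.30 (-0.21 to 0.80). The 9 spiral enzymes differed by 0.21 (Acads) to 0.52 (Acadm, -0.17 to 1.21), all above 0. Cpt1b differed by 0.37 (-0.42 to 1.17) and Cpt1a by -0.26 (-0.68 to 0.16). Among the regulators Ppargc1a differed by 0.35 (-0.13 to 0.84), Ppara by 0.21 (-0.17 to 0.60) and Esrra by 0.07 (-0.24 to 0.39). Other members with small differences were Mgll (-0.26 to 0.25), Lipe (-0.69 to 0.58) and Acaa1a (-0.43 to 0.27), while Ucp3 (-1.86 to 2.2) was too variable to place.

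One setting changed this result. Weights that limma estimates for each heart from its distance to its own group gave MI_DCA hearts 2 and 6 weights of 0.275 and 0.312 and MI_vehicle heart 4 a weight of 0.357, and MI_vehicle heart 3 the highest weight, 2.56. With them 26 members were called higher and 1, Angptl4, lower, where 13.5% of genes tested were called higher and 31.2% lower. MI_DCA hearts 2 and 6 also had the lowest median member level of their group (38.7% and 46.8% of sham). MI_vehicle heart 4 had the highest of its group (92.3%). The weights come from the same values that were then tested. Leaving out any 1 heart gave no call among the members, and the median member difference, 0.30 with all hearts, ranged from 0.18 without MI_vehicle heart 6 to 0.51 without MI_vehicle heart 4, and was 0.48 without MI_DCA heart 2.

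Infarcted hearts given DCA were also compared with the same sham hearts that served the comparison above. In them 20 members were called lower and none higher, where 8.33% of the 11842 genes tested were lower and 15.5% higher. The median log2 fold change was -0.60 over the members and 0.05 over all genes tested. For 12 members every MI_DCA heart lay below every sham heart, as did 2.84% of genes tested. They were Cd36, Acot1, Acot2, Plin5, Cpt2, Acacb, Mlycd, Acadm, Hadhb, Hadh, Etfa and Ppargc1a. In the other members that were lower on average, the MI_DCA hearts within the sham range were hearts 1, 3 and 5, or some of them, except that hearts 4 and 6 also lay within it for Esrra. The lowest adjusted p was that of Ppargc1a at -0.82 (SE 0.16, adjusted p = 0.00983), and the largest called fall that of Acot1 at -1.68 (SE 0.39, adjusted p = 0.0167).

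By role, the MI_DCA hearts fell below sham in 1 of 4 uptake genes, Cd36 at -0.67 (SE 0.16, adjusted p = 0.0188), in 3 of 4 activation and thioesterase genes and in 2 of 4 storage genes, Plin5 (-1.08) and Pnpla2 (-0.56). They fell in Cpt2, Acacb and Mlycd among the 5 shuttle genes, in 6 of 9 spiral enzymes, in none of 3 auxiliary enzymes, in Ehhadh, in Etfa and Etfdh, and in the regulators Ppargc1a and Ppara (-0.59). Lpl (-0.64, SE 0.27, adjusted p = 0.0886), Fabp3 (-0.60, SE 0.26, adjusted p = 0.0976), Cpt1b (-0.71, SE 0.25, adjusted p = 0.0505) and Ucp3 (-1.93, SE 0.67, adjusted p = 0.0531) missed the threshold. Angptl4 stood at 0.42 (SE 0.37, adjusted p = 0.404) and Ucp2 at 0.27 (SE 0.13, adjusted p = 0.115). Of the other 53 pathway genes 17 fell, led by Dgat2 (-1.39, SE 0.39, adjusted p = 0.0274), Acad11 (-1.12, SE 0.21, adjusted p = 0.00807) and Gpam (-1.02, SE 0.25, adjusted p = 0.0199), and 3 rose, Acot9 (0.85, SE 0.26, adjusted p = 0.0336), Acsl5 (0.61, SE 0.14, adjusted p = 0.0177) and Slc27a4 (0.31, SE 0.11, adjusted p = 0.0493). Over all genes tested, 8.33% fell and 15.5% rose.

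Of the markers, 6 of 16 for cardiomyocytes were lower in MI_DCA than in sham hearts, where 8.33% of genes tested were. Higher were 6 of 11 for monocytes and macrophages and 6 of 6 for neutrophils, where 15.5% of genes tested were. Within the monocyte and macrophage list, Csf1r and Mrc1 had lower means in MI_DCA hearts (19.3 and 8.77 FPKM) than in sham hearts (21.9 and 10.2). Relative to the cardiomyocyte markers 11 members were called lower, where 1.03% of genes were, among them Ucp3 (-1.48), Acot1 (-1.24), Acot2 (-0.66), Plin5 (-0.64) and Mlycd (-0.63), and 1 member, Ucp2, was higher (0.72), where 32.4% of genes were.

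The count of 20 depended on single hearts. It was 6 without sham heart 5 or without MI_DCA heart 6, 7 without sham heart 2 and 8 without MI_DCA heart 4. Over all genes tested, 315, 328, 383 and 351 were lower in these fits, in that order, against 987 with all hearts. The member count was 9, 10 and 12 without sham hearts 3, 6 and 4, and 13 without MI_DCA heart 2. It was 15 to 26 without each of the other 4 hearts. Over all genes the count of lower genes ranged from 315 to 1489. In all 12 of these fits 6 members remained called: Acot1, Cd36, Ehhadh, Mlycd, Ppara and Ppargc1a. Whether MI_DCA hearts were nearer to sham than MI_vehicle hearts is addressed only by the direct comparison of both infarcted groups, in which no member was called.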

How the data were processed

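Per the labels' protocols, RNA Access libraries (captured coding transcripts) were made from the apex of 18 perfused hearts and read on a BGISEQ-500 with 50-base single reads. The deposited values are FPKM per gene and per transcript. The files name no unit, and it was taken from the values: the sum of value times transcript length varied by 0.713% between libraries and the sum of values by 3.50%. Tools named in the submitters' processing notes are RSEM 1.2.12, Bowtie2 2.2.5 and DESeq2 1.4.5, and the build is GRCm38.p6. What each was used for is not given in the sources used here. Capture and length scaling mean that levels of different genes compare only roughly.

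Groups follow the treatment labels and replicate numbers the titles. Libraries of a group correlated at 0.923 to 0.993 and none were identical. Differences of log2(FPKM + 1) were tested with limma 3.58.1 (R 4.3.3, trended variance) on the 2 groups compared. Genes entered with FPKM of 1 or more in 6 or more of 12 libraries, and p-values were adjusted by Benjamini-Hochberg over all of them. The pseudocount of 1 understates changes of low genes. The test was tried on simulated data. With no counts, no counting interval can be given. Alternatives were a pseudocount of 0.1, no filter, median-ratio, quantile and TPM scaling, centring on cardiomyocyte markers, all 3 groups in 1 fit, array weights, no trend, a replicate block and each heart left out.

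All 39 members are accounted for. The lowest, median and highest values of each group are given for 23 members that set each role, and for members whose call differed from their role group. Of other pathway genes, the 3 called genes with the largest change in each direction are named. Members, lists and alternatives were chosen with earlier results of these data known. Exceptions named after their values were seen are Acsl4, Acot8, Slc27a4, Hilpda with DCA and the clock genes. Gene coordinates and promoter windows are from RefSeq (GRCm38.p6), in which 19051 gene identifiers matched, and exons from GENCODE M21. Symbols of 26 genes that had become dates were restored by identifier.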

Additional observations from a re-analysis of the deposited data

Results flagged for a closer look

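In each group of 6 hearts, the gap between an extreme heart and its neighbour was compared with the group's whole range for every member. Of 117 such checks, 7 exceeded Dixon's 95% critical value, and chance flags about 1 in 20 groups. MI_vehicle heart 4, as the highest of its group, gave 4 of the 7: Fabp3 at 5102.8 FPKM, Acot13 at 411.23 FPKM, Acads at 117.46 FPKM and Ehhadh at 6.59 FPKM. The cardiomyocyte markers of this heart stood at a median of 98.8% of the sham mean, and their part in these values was not tested. In sham hearts, Acot13 stood out at 578.48 FPKM in heart 1 and Acacb at 51.36 FPKM in heart 5. Ppara stood apart as the lowest of its group in MI_DCA heart 2, at 3.99 FPKM, the heart that was lowest of its group in 34 of 39 members.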

How the results depend on the processing

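For MI_vehicle against sham, calls of the members held under a pseudocount of 0.1, no filter, TPM scaling, all 3 groups in 1 fit and no trend. Leaving out each heart gave 2 members higher and 32 to 36 lower, with 4017 to 4979 genes of all tested higher and 2038 to 2740 lower. Median-ratio scaling left 1 member higher. The split over all genes, 4583 higher and 2408 lower, became 3379 and 3430 with median-ratio scaling, which moved the median of all genes from 0.12 to -0.0046, and 3189 and 3693 with quantile normalization; the cause was not tested. Centring on cardiomyocyte markers, which by construction moves all genes up where the markers fell, gave 6 members higher and 17 lower, and 10037 genes higher and 217 lower. It reversed the sign of Esrra (0.44), Eci2 (0.11), Acads (0.0278), Acadvl (0.0169), Cpt1a (0.57), Acaa1a (0.50), Acadl (0.0614) and Mgll (0.45), and that of Lipe (0.30), not called either way.

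For MI_DCA against MI_vehicle, leaving out each heart gave 0 members called and 0 to 1 gene of all tested, lower. The sign of 6 members, none called, changed in at least 1 of these fits. Array weights gave 26 members higher and 1 lower, and 1623 genes higher and 3747 lower. For MI_DCA against sham, leaving out each heart gave 0 members higher and 6 to 26 lower, with 740 to 2596 genes higher and 315 to 1489 lower. All 3 groups in 1 fit gave 10 members lower. Centring gave 11 lower and 1 higher, and 3833 genes higher and 122 lower. Quantile normalization gave 1555 genes lower and array weights 565. The cause was not tested. The labels tie the replicate numbers to no shared animal or day, deviations of same-numbered hearts correlated at -0.44 to 0.69, and a replicate block gave 34 members lower and 2 higher in MI_vehicle against sham, 0 called in MI_DCA against MI_vehicle, and 17 lower in MI_DCA against sham, where it gave 1124 genes higher and 572 lower.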

Other observations

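Sham hearts were not uniform in several members and in some clock genes. Angptl4 stood at 29.5, 32.2 and 29.7 FPKM in sham hearts 1, 3 and 4 and at 6.85, 11.4 and 10.5 in hearts 2, 5 and 6. Ucp3 stood at 69.6, 105.8 and 92.2 FPKM in hearts 1, 3 and 4 and at 33.0, 44.2 and 40.0 in hearts 2, 5 and 6. Mgll, Lipe and Ehhadh were also higher in each of hearts 1, 3 and 4 than in hearts 2, 5 and 6. Nr1d1, a repressor of the circadian clock, stood at 29.8, 38.7 and 31.8 FPKM in hearts 1, 3 and 4 and at 95.5, 85.7 and 79.5 in hearts 2, 5 and 6. Per2, another clock gene, stood at 9.27, 10.2 and 10.1 FPKM against 4.80, 5.87 and 3.26 in the same order. Some other clock genes did not split in this way. Per1 stood at 27.2, 20.8 and 27.6 FPKM against 34.6, 27.8 and 13.9. Nr1d2, Cry2 and Hlf also overlapped between these hearts. The clock genes were chosen after these values were seen, the labels give no time of day, and a part of it in the values was not tested.

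In the infarcted hearts the clock output gene Dbp spanned 11.6 to 111 FPKM in MI_vehicle hearts and 14.6 to 118 in MI_DCA hearts, with its highest MI_vehicle value in heart 4, the heart with the highest members of its group. Nr1d1, Nr1d2, Tef, Cry2, Per3 and Hlf were also highest of their group in that heart. Per1 (7.84 FPKM), Arntl (1.47), Cry1 (4.01) and Clock (3.55) were lowest there. A relation of these genes to the members was not tested.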
